A study of Macaca nemestrina with 15 samples.

Results

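Interleukin receptor chains are the cell-surface proteins through which blood cells receive interleukin signals. The genes of 10 chains were chosen by name: *IL2RA*, *IL2RB*, *IL2RG*, *IL4R*, *IL7R*, *IL15RA*, *IL21R*, *IL6R*, *IL6ST* and *IL10RA*. A row of the count table was found for 9 of the 10, among 28865 features, and *IL2RG* was not analysed here. All 9 passed the filter on low counts that left 12880 features for testing.

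The RNA came from peripheral blood mononuclear cells (PBMCs) of 5 female pig-tailed macaques (*Macaca nemestrina*), named Z15228, Z13076, Z15339, Z15303 and Z15408. Every animal received islatravir (ISL), a nucleoside reverse transcriptase translocation inhibitor, orally at 30 mg/kg once a week for 12 weeks. The same 5 animals were sampled before the first dose (pre-treatment, labelled as control), at week 12 of dosing and at week 18, which the study's methods place 6 weeks after the last dose, giving 15 libraries in all. No untreated animals were sequenced, so time and treatment cannot be told apart, and the animals' age is not given in the sources used here. In the dates that the library names carry, the second sample of an animal follows the earliest by 56 or 57 days and the last follows it by 84 days. The later 2 samples of an animal are thus 27 or 28 days apart. Both spans are shorter than the 12 and 18 weeks of the labels. What these dates mark was not stated, and the study's text also places the last sample at an earlier week in another passage. The place of both later samples in the course of dosing, and the time from the last dose to the last sample, are thus uncertain. The labelled time points are used.

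Most of the chains belong to receptors built on the common gamma chain, which is encoded by *IL2RG* and pairs with a private chain for each cytokine. *IL2RB* is shared by the receptors for IL-2 and IL-15, which differ in their alpha chains *IL2RA* and *IL15RA*, while *IL4R*, *IL7R* and *IL21R* are the private chains for IL-4, IL-7 and IL-21. The IL-6 receptor is built differently, from the binding chain *IL6R* and the signalling chain gp130 (*IL6ST*), and *IL10RA* is the binding chain of the IL-10 receptor. All of them signal through JAK kinases and STAT transcription factors, and in blood they help to set the survival of T cells, the growth of natural killer (NK) cells and the responses of B cells and monocytes.

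Levels are given as CPM, the counts of a gene per 1000000 counts of its scaled library, and are compared within a gene only, because gene lengths were not used. Library totals ran from 5610597 to 10379572 counts, with a median of 8871860. The week 12 and week 18 libraries of Z15303 were the shallowest, at 5610597 and 5886482 counts. They also stood apart on the first principal component, which held 24.0% of the variance. There they lay at −60.6 and −57.7, against −25.4 to 25.1 for the other 13 libraries. Correlations of the chains over the libraries are therefore given with and without them. Log2 fold changes without them are given where the sign turned. Shares of spread are given for some chains without any library of Z15303. After the time point means were taken out, 2 libraries of an animal had a mean correlation of 0.551 over 15 pairs. For libraries of different animals and different time points it was −0.137 over 60 pairs. Taking out those means pushes the second value below 0 when the first is above it, so the 2 are not separate results. The time points were compared by edgeR's quasi-likelihood test with adjustment over all 12880 features, first with the time point alone and then with the animal as a block, and log2 fold changes are given with their standard errors (SE). In a mixture of cells such as PBMCs, fewer cells of a type and less RNA per cell cannot be told apart. Among markers of the labelled cell type, the T cell genes *CD3D*, *CD3E* and *CD3G* and the NK cell genes *NKG7* and *GNLY* were detected in all 15 libraries. So were the B cell gene *MS4A1* and the monocyte genes *CD14* and *LYZ*. The platelet gene *PPBP* was also detected in all 15 libraries, and detection by itself does not settle which cells were present.

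None of the 9 chains passed the test at either later time point. *IL2RB*, the signalling chain that T cells and NK cells use for IL-2 and IL-15, was at 912 ± 144 CPM pre-treatment, 888 ± 298 CPM in week 12 and 842 ± 201 CPM in week 18 (mean ± SD, n = 5). The IL-7 receptor chain *IL7R* was at 311 ± 44.8, 353 ± 73.2 and 326 ± 30.6 CPM at the same time points (mean ± SD, n = 5). *IL10RA* was at 675 ± 86.0, 671 ± 99.4 and 672 ± 121 CPM (mean ± SD, n = 5). For some chains single animals stood apart. *IL4R* was higher in all 3 libraries of Z15408 than in any of the other 12 libraries, and *IL2RB* was lower in the 2 later libraries of Z15303 than in any of the other 13.

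**Figure D1:**
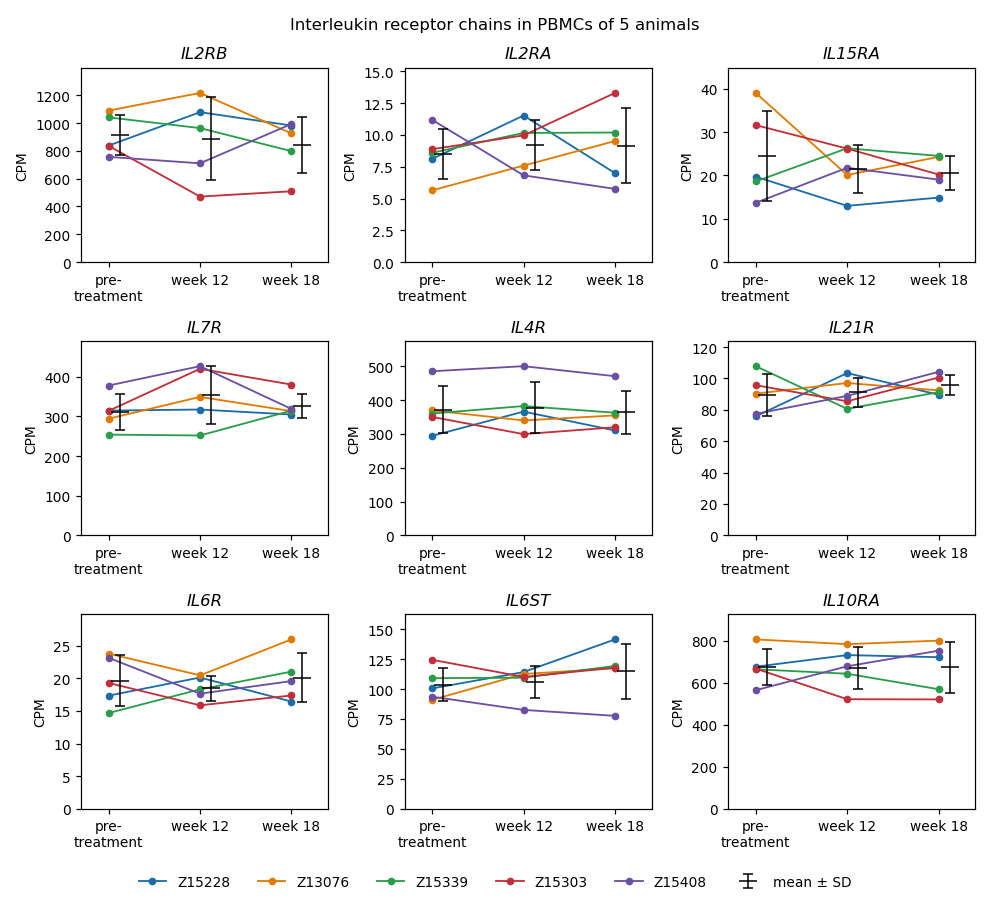
CPM (vertical axis, starting at 0) of the 9 measured chains at the 3 time points (horizontal axis), with a coloured line for each of the 5 animals and the mean ± SD in black. The lines cross within most panels, while *IL4R* in Z15408 stays between 471 and 501 CPM, above the other animals, and *IL2RB* in Z15303 goes from 836 to 471 CPM.

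*IL2RB*, also called CD122, carries the signal of IL-2 and IL-15 and is abundant on NK cells and memory CD8 T cells. In Z15228, Z13076, Z15339, Z15303 and Z15408, in that order, it was at 838, 1089.6, 1041, 836 and 757 CPM before treatment. At week 12 the same animals had 1078, 1217, 964, 471 and 710.4 CPM. At week 18 they had 982, 926, 798, 509 and 993 CPM. The 3 ranges overlapped, and the lowest value at both later time points was that of Z15303, whose log2 CPM changed by −0.83 at week 12 and −0.71 at week 18. In the other 4 animals the change lay between −0.11 and 0.36 at week 12 and between −0.38 and 0.39 at week 18. Over all 5 animals the log2 fold change was −0.039 (SE 0.23) at week 12, with a 95% interval of −0.53 to 0.45, and −0.12 (SE 0.23) at week 18, with an interval of −0.60 to 0.37. Both edgeR adjusted p-values were 1. Without the 2 later libraries of Z15303 the log2 fold changes turned positive, at 0.12 and 0.019.

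*IL2RA*, or CD25, gives the IL-2 receptor its high affinity and is a mark of regulatory and activated T cells. Its counts were low, 50 to 111 per library, so that counting alone gave a coefficient of variation of 9.49 to 14.1%. In the same order of animals it was at 8.11, 5.64, 8.60, 8.88 and 11.2 CPM before treatment and at 11.5, 7.59, 10.2, 9.96 and 6.82 CPM at week 12. At week 18 the values were 6.99, 9.52, 10.2, 13.3 and 5.76 CPM. The groups overlapped, with 4 of 5 animals higher at week 12 and Z15408 lower by a log2 change of −0.69. The log2 fold change was 0.12 (SE 0.24) at week 12 and 0.10 (SE 0.24) at week 18, each with an edgeR adjusted p of 1.

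*IL15RA* binds IL-15 tightly and presents it to neighbouring cells that carry *IL2RB*, and monocytes and dendritic cells are known to use it so. Before treatment the animals had 19.7, 39.1, 18.6, 31.6 and 13.7 CPM, a 2.85-fold span between the lowest and the highest animal. The span was 2.02-fold at week 12, with 12.98, 20.1, 26.3, 26.2 and 21.8 CPM, and 1.65-fold at week 18, with 14.9, 24.3, 24.5, 20.2 and 19.0 CPM. The within-animal changes had opposite signs. Z15228, Z13076 and Z15303 changed by −0.59, −0.95 and −0.27 on the log2 scale at week 12, while Z15339 and Z15408 changed by 0.49 and 0.66. The same 3 animals were lower and the same 2 higher at week 18, which is compared with the same pre-treatment libraries. The log2 fold change over all animals was the most negative of the 9 chains, −0.20 (SE 0.26) at week 12 and −0.25 (SE 0.26) at week 18, with intervals of −0.75 to 0.36 and −0.81 to 0.30 and edgeR adjusted p-values of 1. The sign depended on which animals entered: in the 3 animals whose library names carry the same dates (Z15339, Z15303 and Z15408) the log2 fold changes were 0.22 and 0.0074.

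*IL7R*, or CD127, keeps naive and memory T cells alive through IL-7, and with *CRLF2* it also forms the receptor for *TSLP*. It was at 315, 294, 254, 314 and 378 CPM before treatment. The week 12 libraries held 317, 349, 252, 420.0 and 427 CPM and the week 18 libraries 305, 313, 314, 380.2 and 319 CPM. At week 12, 4 of 5 animals were higher than before treatment, by log2 changes of up to 0.42 in Z15303, and the ranges of the 2 groups overlapped. The log2 fold change at week 12 was the largest positive one of the 9 chains, 0.18 (SE 0.15), with an interval of −0.13 to 0.49 and an edgeR adjusted p of 1. In the blocked fit it was 0.17 (SE 0.11), with an interval of −0.067 to 0.41 and an edgeR adjusted p of 0.982. Over all 19 alternatives, among them the fit without the later libraries of Z15303, it lay between 0.11 and 0.23 at week 12. At week 18 it was 0.069 (SE 0.15), with 3 of 5 animals higher.

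*IL4R* is the binding chain for IL-4, and with *IL13RA1* it also forms a receptor for IL-13. B cells, T cells and monocytes carry it. Before treatment the animals had 294, 369.6, 361, 350.4 and 486 CPM. The values were 366, 340.0, 383, 299 and 501 CPM at week 12 and 310.3, 355, 363, 319.8 and 471 CPM at week 18. Each animal kept close to its own level: the within-animal log2 changes lay between −0.23 and 0.31 at week 12 and between −0.13 and 0.075 at week 18. The log2 fold changes were 0.022 (SE 0.16) and −0.033 (SE 0.16), with edgeR adjusted p-values of 1.

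*IL21R*, the receptor chain of T, B and NK cells for the follicular helper cytokine IL-21, had the smallest spread of log2 CPM over the 15 libraries among the 9. It ranged from 75.8 to 108 CPM pre-treatment, from 80.6 to 103 at week 12 and from 89.6 to 104 at week 18. Its log2 fold changes were 0.027 (SE 0.11) and 0.10 (SE 0.11). The intervals, −0.21 to 0.27 at week 12 and −0.14 to 0.34 at week 18, were the narrowest of the 9 chains.

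Of the IL-6 receptor, *IL6R* is the binding chain, found on monocytes and some T cells and also shed into plasma, and *IL6ST* (gp130) is the signalling chain that nearly all cells carry. *IL6R* had 86 to 213 counts per library and ranged from 14.7 to 23.8 CPM pre-treatment, 15.9 to 20.5 CPM in week 12 and 16.4 to 26.0 CPM in week 18. Its log2 fold changes were −0.087 (SE 0.16) and 0.032 (SE 0.16). *IL6ST* was at 101, 91.0, 109, 125 and 93.6 CPM before treatment, in the same order of animals as above. It was at 114, 113, 109.5, 110.2 and 82.6 CPM at week 12 and at 142, 117, 119, 118 and 77.6 CPM at week 18. Z15408 was the lowest animal for *IL6ST* at both later time points, and Z15228 the highest. The log2 fold changes of *IL6ST* were 0.028 (SE 0.15) and 0.15 (SE 0.15), with edgeR adjusted p-values of 1, and at week 18 3 of 5 animals were higher.

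A ratio of counts within a library does not depend on how libraries are scaled, and so the ratio of *IL6R* to *IL6ST* was followed in each animal. Before treatment it was 0.173, 0.262, 0.135, 0.155 and 0.248. It was 0.176, 0.182, 0.167, 0.144 and 0.214 at week 12. The within-animal change of the log2 ratio was −0.10 ± 0.31 at week 12 (SD, n = 5, two-sided exact sign-flip permutation p = 0.5625), with 3 of 5 animals lower. At week 18 it was −0.094 ± 0.35 (exact sign-flip permutation p = 0.625). Adjusted over the 3 comparisons the smallest value was 0.9375, and 5 animals allow no p below 0.0625.

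*IL10RA* is the chain that binds IL-10, the cytokine that restrains monocytes and T cells. Before treatment it was at 675, 805, 663, 666 and 563 CPM. It was at 731, 783, 642, 521 and 677 CPM at week 12 and at 721, 799, 568, 519.6 and 752 CPM at week 18. Z15303 was lower at both later time points, by log2 changes of −0.36 and −0.36, and Z15408 was higher, by 0.27 and 0.42. Over all 5 animals the log2 fold changes were −0.0087 (SE 0.15) and −0.0059 (SE 0.15), the smallest in size at week 18 among the 9 chains. Without the 2 later libraries of Z15303 they were 0.069 and 0.073.

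For the chains as a group, week 12 was compared with pre-treatment, a step in which time and treatment cannot be told apart. By edgeR 0 of 9 chains passed at an adjusted p of 0.05, where 0% of all 12880 features did. In the fit with that block it was again 0 of 9, against 0.00776% of all features, and the smallest edgeR adjusted p was 0.982. At an unadjusted p of 0.05, 0 of 9 chains passed without the block and 0 of 9 with it, against 1.61% and 4.69% of all features, and DESeq2's Wald test likewise called 0 of 9 with and without the block. The log2 fold changes had a median of 0.022, beside 0.0037 over all features, with 4 negative and 5 positive. The chains are known to lie on different cell types, and no chain was lower in all 5 animals or higher in all 5, against 3.45% and 2.23% of all features. No chain's week 12 values lay apart from its pre-treatment values, against 0.28% of all features.

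Week 18, which the study's methods place after the last dose, gave a like count when set against the same pre-treatment libraries. Again 0 of 9 chains passed at that adjusted p by edgeR, against 0% of all features without the block and 0.00776% with it, and the smallest edgeR adjusted p with the block was 0.909. At an unadjusted p of 0.05 it was 0 of 9 in both fits, against 1.69% and 5.85%. The median log2 fold change was 0.032, and the values ran from −0.25 for *IL15RA* to 0.15 for *IL6ST*. No chain moved in 1 direction in all 5 animals, against 3.49% of all features that were lower in all 5 and 3.04% that were higher, and 0 of 9 had groups that did not overlap, against 0.334%.

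By the study's account the step from week 12 to week 18 goes from dosing to washout. In this step the log2 fold changes of the chains lay between −0.11 for *IL7R* and 0.12 for *IL6R*, with a median of −0.014. Here too 0 of 9 passed at an adjusted p of 0.05 by edgeR, against 0% of all features in both fits, and 0 of 9 an unadjusted p of 0.05, against 0.505% without the block and 2.17% with it. No chain moved in 1 direction in all 5 animals, against 2.87% of all features that were lower in all 5 and 2.99% that were higher, and 0 of 9 had groups without overlap, against 0.101%. For week 12 the interval reached from −0.75 for *IL15RA* at its lowest to 0.63 for *IL2RA* at its highest without the block, and from −0.58 for *IL15RA* to 0.58 for *IL2RA* with it. Changes inside these intervals could not be told from 0 with 5 animals at this depth.

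**Figure D2:**
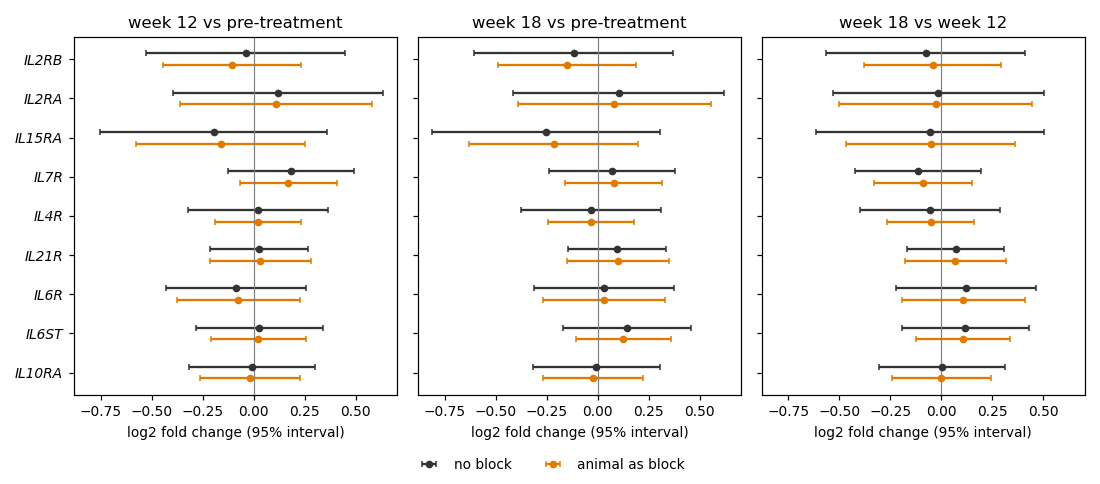
Log2 fold change (horizontal axis) of each chain with its 95% interval in the 3 comparisons, from edgeR's test without a block (black) and with the animal as a block (orange). All 54 intervals cross 0, the widest being those of *IL15RA* and *IL2RA* and the narrowest without the block those of *IL21R*.

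**Figure D3:**
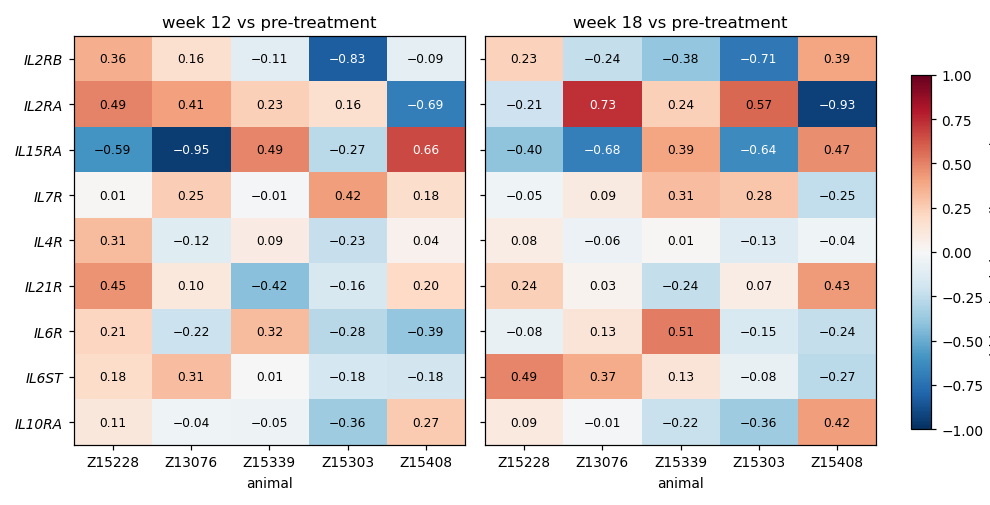
Within-animal change of log2 CPM from pre-treatment for each chain (rows) and animal (columns) at week 12 and week 18, coloured from −1 (blue) to 1 (red). No row has a single sign in all 5 animals, *IL2RB* is at −0.83 and −0.71 in Z15303, and *IL15RA* is negative in 3 animals and positive in 2 at both time points.

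How far the animals differed from each other was set against how far the time points did. Of the spread of log2 CPM over the 15 libraries, the animal took 88.1% for *IL4R*, 66.7% for *IL10RA*, 64.3% for *IL6ST*, 64.1% for *IL2RB* and 60.2% for *IL7R*, while the median over all features was 51.9%. *IL15RA* and *IL6R* were close to that median, at 51.9% and 50.3%. *IL2RA*, at 30.8%, and *IL21R*, at 4.43%, lay below it, and for *IL21R* 86.5% of the spread fell to neither animal nor time. The time point took between 0.121% for *IL10RA* and 10.1% for *IL7R*, against a median of 6.23% over all features. Without the 3 libraries of Z15303 the animal's share was 40.8% for *IL2RB*, beside a median of 43.3% over all features, and 89.3% for *IL4R*, 62.6% for *IL10RA*, 62.1% for *IL6ST* and 61.9% for *IL7R*. *IL2RB* was then below the median and the other 4 above it.

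**Figure D4:**
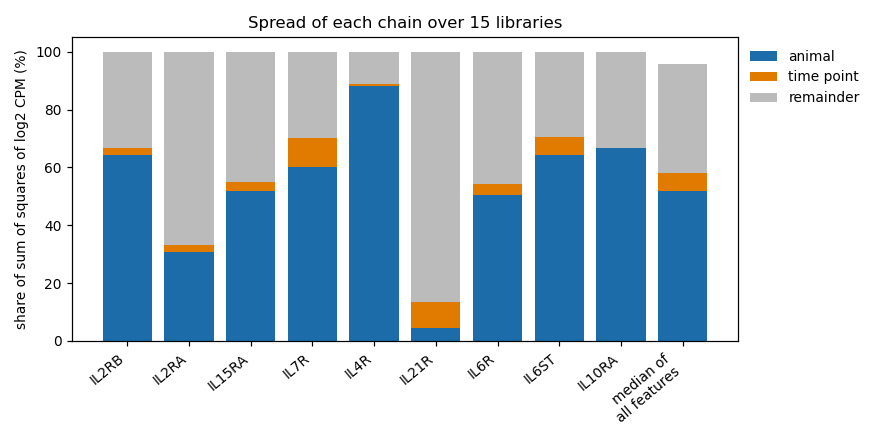
Share of the sum of squares of log2 CPM over 15 libraries (vertical axis, percent) that fell to the animal, the time point and the remainder, for each chain and as the medians over all tested features, which are taken one by one and need not add to the full bar. *IL4R* has the largest animal share, 88.1%, and *IL21R* the smallest, 4.43%.

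The difference between animals was tested in the fit with the block, a test chosen after the values were seen. In edgeR's F test of the animal terms 2 of 9 chains passed an adjusted p of 0.05, against 30.9% of all 12880 features, so the chains as a group were not called more often than other features. *IL4R* had an edgeR adjusted p of 0.00831. Its mean over the 3 time points was 486 CPM in Z15408, and 324, 355, 369 and 323 CPM in Z15228, Z13076, Z15339 and Z15303. The call rested on Z15408: without that animal the edgeR adjusted p was 0.481, and without any other animal it was between 0.00475 and 0.0222. *IL2RB* had an edgeR adjusted p of 0.0362, which became 0.453 without Z15303 and 0.0551 without Z15339. With an animal left out, the share of all features that passed was 26.3% without Z15228, 33.2% without Z13076, 21.9% without Z15339, 17.7% without Z15303 and 25% without Z15408. The other 7 chains had edgeR adjusted p-values between 0.0679 for *IL6ST* and 0.986 for *IL21R*. Of these, *IL6ST* passed without Z13076, at 0.0323, and *IL10RA* without Z15408, at 0.0489.

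In Z15303 the chains split. *IL2RB* was lower than before treatment by the log2 values given above, while *IL7R* was 0.42 and 0.28 above its pre-treatment level. The ratio of *IL2RB* to *IL7R* counts, a pair chosen after the values were seen, went from 2.66 before treatment to 1.12 at week 12 and 1.34 at week 18. In the other 4 animals it lay between 1.67 and 4.10 over all time points. The median within-animal change of the 9 cytotoxic and NK cell genes was −0.063 at week 12 and −0.16 at week 18, that of the 10 T cell genes −0.012 and −0.049, and that of all features −0.013 and −0.0015. The B cell genes were lower in this animal, 8 of 8 at both times, with median changes of −0.62 and −1.49. The monocyte genes had medians of −0.14 and −0.15, and the regulatory T cell genes −0.028 and 0.067. The medians were 0.74 and 0.047 for granulocyte genes, 0.37 and 0.64 for platelet genes and 0.44 and −1.44 for red cell genes. Its summed platelet level, 6608 CPM at week 12 and 7641 CPM at week 18, was the highest of the 5 animals at both times, and so was its summed granulocyte level of 447 CPM at week 12. Lower as well were the JAK kinases and STAT factors, 10 of 10 genes at week 12 and 9 of 10 at week 18, with median changes of −0.43 and −0.36. Both libraries are also the shallowest, and the part of depth and of these cell markers in the values of the chains was not tested.

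Correlations of log2 CPM over the 15 libraries are given as a description, beside their value without the 2 later libraries of Z15303. Between 2 chains Pearson's r ran from −0.72 to 0.84 over 36 pairs. The highest was that of *IL2RB* and *IL10RA*, 0.84 and 0.68 without those libraries. For *IL2RB* and *IL7R* it was −0.68 and −0.50. After each animal's mean was taken out, the pairs had 0.79 and −0.72, and 0.63 and −0.56 without those libraries. The lowest, that of *IL4R* and *IL6ST*, was −0.72 and −0.74, and within animals 0.062. These values describe libraries of 5 animals, and the libraries of an animal are not independent.

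The chains were also set beside the mean log2 CPM of the T cell, cytotoxic and NK cell, B cell and monocyte genes, with 36 values of r between −0.63 and 0.75. With the cytotoxic and NK cell genes *IL2RB* had 0.75 over all libraries, 0.37 within animals and 0.57 without the 2 libraries. *IL10RA* had 0.64, 0.49 and 0.38 in that order with the same genes, and *IL7R* −0.56, −0.19 and −0.37. With the T cell genes *IL7R* had 0.57, 0.41 and 0.40. *IL2RB* had −0.60, 0.036 and −0.30 with them, and *IL10RA* −0.63, −0.19 and −0.40. Over all libraries the values for *IL2RB* and *IL10RA* with the T cell genes were thus smaller in size within animals. Without the 2 libraries the values within animals were 0.35 and −0.012.

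**Figure D5:**
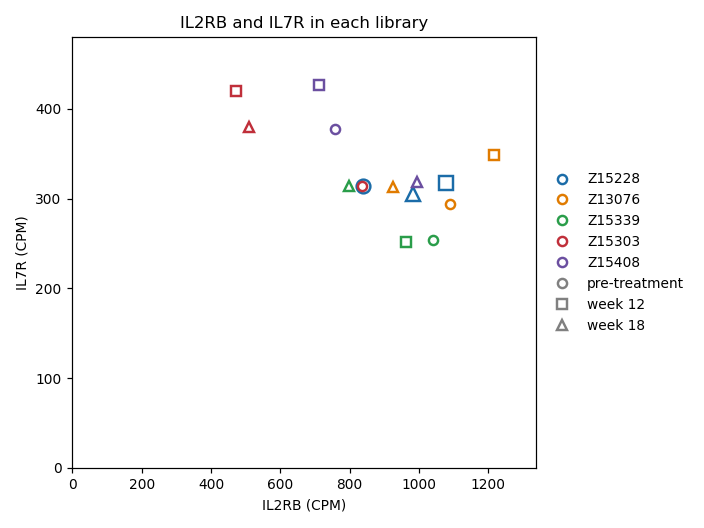
*IL7R* against *IL2RB* in each of the 15 libraries, both in CPM on axes that start at 0, with a colour for each animal and a symbol for each time point. The week 12 and week 18 libraries of Z15303 lie at the left, at 471 and 509 CPM of *IL2RB*, and its pre-treatment library falls on that of Z15228.

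Among the 10772 other tested genes with a symbol, those whose log2 CPM over the 15 libraries was most like that of *IL2RB* were *EWSR1* (0.95) and *ACSL5* (0.94), with Pearson's r in parentheses. For *IL10RA* they were *PIGT* (0.95) and *NPEPL1* (0.91), for *IL7R* *CENPC* (0.89) and *EYA3* (0.87), and for *IL4R* *JAKMIP2* (0.90) and *TMEM43* (0.90). Those of *IL2RA* were *SMG1* (0.84) and *C4orf51* (0.82), and those of *IL15RA* *SIGLEC12* (0.82) and *LHPP* (0.82). For *IL21R*, *IL6R* and *IL6ST* the first in order were *RPUSD2* (0.81), *RLF* (0.79) and *TRAV30* (0.84), followed by *PPP2R5D* (0.80), *GLT1D1* (0.77) and *C11orf1* (0.84). Without the 2 later libraries of Z15303 these 18 values lay between 0.74 and 0.93. The highest of so many values is high in any data of 15 libraries, and libraries of an animal share its deviations.

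The cytokines that bind these chains were measured at low counts or not at all. *IL7*, the survival cytokine of T cells, had 116 to 253 counts per library and was at 22.9 ± 3.37 CPM pre-treatment, 22.1 ± 1.65 CPM in week 12 and 21.3 ± 1.42 CPM in week 18 (mean ± SD, n = 5). *IL15*, which monocytes and dendritic cells make for NK cells and memory T cells, had 34 to 95 counts and was at 8.48 ± 2.01, 6.50 ± 0.810 and 6.62 ± 1.29 CPM. *IL15* was lower than before treatment in 5 of 5 animals at week 12 and in 5 of 5 at week 18, times that share their pre-treatment libraries. Of all features, 3.45% and 3.49% were lower in all 5 animals at these times. The log2 fold changes of *IL15* were −0.38 (SE 0.21) and −0.35 (SE 0.21) and did not pass, with edgeR adjusted p-values of 1 without the block and of 0.982 and 0.856 with it. *IL10* had 1 to 16 counts per library and was at 1.21 ± 0.644, 0.851 ± 0.529 and 0.622 ± 0.535 CPM. Its log2 fold changes, −0.45 at week 12 and −0.91 at week 18, were the most negative of the 3 tested ligands and did not pass. *IL2*, *IL4*, *IL13*, *IL21*, *TSLP* and *IL6* were at 0 to 7 counts in every library and were not tested. *IL9* had no count in any of the 15 libraries, where a limit of 3 counts corresponds to 0.301 to 0.554 CPM per library. This limit covers counting error only.

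The partner chains that complete these receptors are *IL9R* and *CRLF2*, the private chains for IL-9 and *TSLP*, *IL13RA1*, which joins *IL4R*, and *IL10RB*, which joins *IL10RA*. Of these 0 of 4 passed in any comparison. *IL9R* was at 1.69 ± 0.847, 2.09 ± 0.629 and 2.31 ± 1.42 CPM, with a log2 fold change of 0.32 (SE 0.46) at week 12. *IL10RB* was at 260.0 ± 33.0, 251 ± 25.6 and 270.0 ± 20.6 CPM, with −0.049 (SE 0.11). Of 22 other interleukin and related cytokine receptors, 20 had a row and 14 were tested, and 0 of 14 passed. *CSF2RB*, the shared chain of the IL-3, IL-5 and GM-CSF receptors, had a log2 fold change of −0.24 (SE 0.12) at week 12, with 4 of 5 animals lower. *IL1RAP*, the partner chain of the IL-1 receptor, had −0.34 (SE 0.24), also with 4 of 5 lower. The median over the 14 was −0.081 at week 12 and −0.12 at week 18.

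Downstream of the receptors stand the JAK kinases, which sit on the chains, and the STAT factors that they activate. Of these 10 genes 0 passed in any comparison, and the median of their log2 fold changes was −0.045 at week 12 and −0.11 at week 18. *JAK2*, a kinase bound by gp130, had −0.17 (SE 0.17) at week 12, and *STAT4*, the factor of IL-12 signalling, had 0.25 (SE 0.28), a value for which 3 of 5 animals were nevertheless lower. Genes that interleukin signals induce or that damp them were also set beside the chains, and 0 of 11 passed. *SOCS3*, which is induced by IL-6 and IL-10 and blocks gp130, was at 16.0 ± 8.67 CPM pre-treatment, 7.50 ± 4.21 CPM in week 12 and 8.55 ± 3.08 CPM in week 18 (mean ± SD, n = 5). The log2 fold change was −1.07 (SE 0.44) at week 12, with 4 of 5 animals lower. At week 18 it was −0.89 (SE 0.44), with 5 of 5 lower, as 3.49% of all features were. The edgeR adjusted p-values were 1, and 0.559 and 0.625 with the block. *MCL1*, a survival protein maintained by IL-7 and IL-15, had −0.21 (SE 0.13) at week 12, with 4 of 5 animals lower. *CISH* and *FCER2*, named after their values were seen, are targets of STAT5 and of IL-4. *CISH* had 0.41 (SE 0.36) at week 12 with 4 of 5 animals higher. *FCER2* had −0.40 (SE 0.56) with 5 of 5 lower, as 3.45% of all features were. With the block both genes had an unadjusted p under 0.05, as 4.69% of all features had, but edgeR adjusted p-values of 0.852 and 0.743. The tested B cell genes given below were also lower in 5 of 5 animals at week 12, and their part in the value of *FCER2* was not tested. *ADAM10* and *ADAM17*, the proteases that shed *IL6R* from the cell surface, had log2 fold changes of −0.22 (SE 0.18) and −0.22 (SE 0.18) at week 12, and 0 of 2 passed.

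The markers of the cells that carry these chains are given beside them. Of 10 T cell genes 0 passed, and the median of their log2 fold changes was 0.071 at week 12 and 0.050 at week 18. Their summed level was 1743 to 1942 CPM over the animals pre-treatment, 1770.1 to 2042 at week 12 and 1707 to 2078 at week 18. *BCL11B* and *TCF7*, transcription factors of T cells, had 0.21 (SE 0.27) and −0.10 (SE 0.13) at week 12. Of 9 cytotoxic and NK cell genes 0 passed, with medians of 0.15 and −0.043 and summed levels of 3422 to 7667, 4475 to 10061 and 4539 to 7675 CPM. *GZMB* and *PRF1*, which encode granzyme B and perforin, had 0.21 (SE 0.24) and 0.22 (SE 0.27) at week 12. Of 9 monocyte genes tested 0 passed, with medians of −0.15 and 0.22 and summed levels of 2294 to 4454, 2398 to 3834 and 2729.6 to 5641 CPM. The scavenger receptor *CD163* and the receptor *CSF1R* had −0.30 (SE 0.27) and −0.23 (SE 0.23).

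The medians of the B cell genes lay farther from 0, and the study names most of them from these same libraries. Of 9, *PAX5* was under the filter, and 0 of the other 8 passed, with medians of −0.94 and −1.06. All 8 were lower in 5 of 5 animals at both times, against 3.45% and 3.49% of all features. At an unadjusted p of 0.05, 4 of 8 were lower at week 12 without the block and 8 of 8 with it, where 3.25% of all features were lower at that p with the block, with a smallest edgeR adjusted p of 0.0768. Their summed level was 255 to 1073 CPM pre-treatment, 145 to 543 at week 12 and 187 to 449 at week 18. *BANK1* and *FCRLA*, genes of B cell signalling, had log2 fold changes of −0.84 (SE 0.24) and −1.02 (SE 0.38) at week 12. *IL4R* and *IL21R*, which are among the chains that B cells carry, had log2 fold changes of 0.022 and 0.027 beside these. Their Pearson's r with the mean of the B cell genes was −0.21 and −0.24 over the 15 libraries. Without the later libraries of Z15303 it was −0.37 and −0.19. Among the 9 chains this r ran from −0.36 for *IL6R* to 0.13 for *IL6ST* over the 15 libraries. Without the later Z15303 libraries it ran from −0.51 for *IL6R* to 0.31 for *IL2RA*. The part of the B cell markers in the chains' values was not tested.

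Beside *IL2RA* stand the regulatory T cell genes, of which 0 of 3 passed, with medians of −0.16 at week 12 and −0.078 at week 18. Their summed levels were 32.1 to 41.4, 32.5 to 37.8 and 31.6 to 43.3 CPM. The inhibitory receptor *CTLA4* was at 12.0 ± 2.20 CPM pre-treatment, 8.56 ± 2.24 CPM in week 12 and 9.84 ± 3.69 CPM in week 18 (mean ± SD, n = 5). The week 18 values, up to 13.5 CPM, overlapped with those before treatment. At week 12 the log2 fold change was −0.49 (SE 0.27), with an edgeR adjusted p of 1. *CTLA4* was then lower in all 5 animals, as were 3.45% of all features. The 2 groups did not overlap, as for 0.28% of all features, but lay close, with a lowest pre-treatment value of 10.54 CPM and a highest week 12 value of 10.49 CPM. *IKZF2*, a transcription factor of regulatory T cells, had −0.16 (SE 0.22). *FOXP3*, the factor that defines these cells and the third gene of the list, named here after its values were seen, was at 17.8 ± 3.87 CPM pre-treatment, 19.1 ± 1.21 CPM in week 12 and 20.6 ± 1.93 CPM in week 18. Its log2 fold changes were 0.10 (SE 0.14) and 0.21 (SE 0.14), with 4 of 5 animals higher at both times and edgeR adjusted p-values of 1. Genes taken as markers of granulocytes, platelets and red cells were read as well, and by themselves do not show that such cells were present. The medians at week 12 were −0.053 for 4 granulocyte genes, among them *CSF3R* at −0.26 (SE 0.24) and *MMP9* at 0.35 (SE 0.59), and 0.16 for 4 platelet genes, among them *ITGA2B* at 0.28 (SE 0.41) and *PPBP* at 0.21 (SE 0.34). For the 2 red cell genes tested, *ALAS2* and *SLC4A1*, the values were −0.74 (SE 0.90) and 0.062 (SE 0.83). Summed granulocyte levels were 194 to 403, 203 to 447 and 279 to 609 CPM, platelet levels 2587 to 5359, 2327 to 6608 and 2070.2 to 7641 CPM, and red cell levels 35.2 to 774, 36.9 to 338 and 36.8 to 631 CPM. None of these genes passed in any comparison, and their part in the chains' values was not tested.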

How the data were processed

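PBMCs from 5 pig-tailed macaques were sequenced at 3 time points, 15 libraries in all. Per the study's methods the authors extracted RNA, amplified cDNA with the SMART-Seq v4 kit, made libraries with Nextera XT and sequenced paired ends, then aligned the reads with STAR 2.7.9a to the *M. nemestrina* genome (Ensembl release 95) and counted reads per gene with its GeneCounts option. The authors deposited raw counts per gene, with no normalization or filter. The kit does not mark strand, so reads of overlapping antisense genes cannot be told apart. All columns were used. Animals and time points came from the labels, which give the same 5 animals at each time point. The members and gene lists were chosen with earlier results of these data known.

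Counts were tested in R 4.3.3 with edgeR 4.0.16 (TMM, filterByExpr with a minimum count of 10, quasi-likelihood F test, time point as the only term, all 15 libraries, Benjamini-Hochberg over 12880 features, adjusted p of 0.05). Standard errors were taken as |log2 fold change|/√F, and log2 CPM used a prior count of 2. The script was tested on simulated counts. Pairing was checked as the correlation of deviations from time point means, whose lowest same-animal value was 0.35. With the block the biological coefficient of variation went from 29.3% to 16.9%. Alternatives were DESeq2 1.42.0 and its size factors, the block, library size alone, other filters, leaving out animals, and the 3 animals with shared dates. The test between animals, the left-out Z15303 libraries and the ratios without *IL6R* were added after the data were seen. In each list, the 2 genes with the smallest unadjusted p at week 12 are named, with all chains and all ligands that have counts, and for each chain the 2 genes most like it. Others are said to be chosen after their values were seen. Ratios with *IL2RG* and levels per gene length were planned and not run, since no row and no length was found. No sequence or coordinate of the chains was used here.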

Additional observations from a re-analysis of the deposited data

Results flagged for a closer look

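Among the 54 groups of 5 values checked for a value far from the others (9 chains, as levels at 3 time points and as within-animal changes in 3 comparisons), 3 held one, and chance marks about 5% of groups. The within-animal log2 change of *IL2RA* at week 12 was −0.69 in Z15408, against 0.16 to 0.49 in the other 4 animals. The level of *IL7R* at week 18 was 380.2 CPM in Z15303, against 305 to 319 CPM in the other 4. The level of *IL6ST* at week 12 was 82.6 CPM in Z15408, against 109.5 to 114 CPM in the other 4.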

How the results depend on the processing

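The count of chains that passed was 0 of 9 in each of the 3 comparisons under all 19 alternatives, and none of the 513 alternative chain values had an adjusted or unadjusted p under 0.05. Their direction held in 445 and turned in 68, of which 55 were of chains with a log2 fold change under 0.1 in size. The counts of all features that passed at week 12, at week 18 and between them were 0, 0 and 0, and 1, 0 and 0 by DESeq2. In fits with the animal as replicate block, which pairs the samples of an animal, they were 1, 1 and 0 by edgeR and 23, 50 and 8 by DESeq2, and leaving out an animal in the blocked edgeR fit gave 0 to 6 at week 12 (the highest without Z13076), 0 to 17 at week 18 (the highest without Z13076, and 3 without Z15408) and 0 between them. The block changed no call of a chain. Signs turned at week 12 in the 3 animals with shared dates (*IL2RA* −0.078, *IL4R* −0.00033, *IL15RA* 0.22, *IL21R* −0.13, *IL6ST* −0.10), with library size alone (*IL4R* −0.0018) and without the later Z15303 libraries (*IL2RB* 0.12, *IL10RA* 0.069). At week 18 they turned with shared dates (*IL15RA* 0.0074, *IL6ST* −0.043), with no filter (*IL10RA* 0.0034) and without the later Z15303 libraries (*IL2RA* −0.064, *IL2RB* 0.019, *IL4R* 0.0099, *IL10RA* 0.073). Between week 12 and week 18 they turned with shared dates (*IL2RA* 0.11, *IL2RB* 0.10, *IL10RA* −3.9e-05), without the later Z15303 libraries (*IL15RA* 0.029) and for *IL10RA* with the block in DESeq2 (−0.0015) and edgeR (−0.00021), library size alone (−0.0050) and a minimum count of 50 (−0.0014). Leaving out an animal, with and without the block, gave at week 12 −0.21 to 0.10 for *IL2RB*, −0.046 to 0.092 for *IL4R*, −0.37 to 0.055 for *IL15RA*, −0.069 to 0.15 for *IL21R*, −0.17 to 0.0099 for *IL6R*, −0.048 to 0.10 for *IL6ST* and −0.084 to 0.078 for *IL10RA*. At week 18 it gave −0.080 to 0.36 for *IL2RA*, −0.29 to 0.017 for *IL2RB*, −0.049 to 0.0012 for *IL4R*, −0.082 to 0.11 for *IL6R* and −0.13 to 0.076 for *IL10RA*, and between the later times −0.16 to 0.16 for *IL2RA*, −0.22 to 0.049 for *IL2RB*, −0.14 to 0.026 for *IL15RA* and −0.042 to 0.042 for *IL10RA*. The mean change of the log2 ratio of *IL6R* to *IL6ST* ran over −0.20 to 0.0069, −0.21 to 0.026 and −0.063 to 0.16 when an animal was left out. The cause of these turns was not tested. With library size alone, 0 of 27 chain levels moved by over 1 SD. The counts of *IL2RA*, *IL6R* and *IL15RA* limit how small a change could be seen.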

Other observations

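The ratios of the alpha chains to the shared chain *IL2RB* were taken from counts within each library, as pairs chosen after the data were seen. The ratio of *IL15RA* to *IL2RB* was 0.0235, 0.0358, 0.0179, 0.0378 and 0.0181 before treatment in Z15228, Z13076, Z15339, Z15303 and Z15408. At week 12 it was 0.0120, 0.0165, 0.0273, 0.0556 and 0.0306, and at week 18 0.0152, 0.0262, 0.0307, 0.0397 and 0.0192. Z15303 held the highest value at each of the 3 time points. The ratio of *IL2RA* to *IL2RB* was 0.00968, 0.00518, 0.00826, 0.0106 and 0.0148 before treatment in the same order. It was 0.0107, 0.00624, 0.0105, 0.0212 and 0.00960 at week 12 and 0.00712, 0.0103, 0.0128, 0.0261 and 0.00580 at week 18. Z15303 was highest at both later time points and Z15408 before treatment. In a two-sided exact sign-flip permutation test of the within-animal log2 change, *IL15RA* to *IL2RB* had p = 1 in each of the 3 comparisons. *IL2RA* to *IL2RB* had exact sign-flip p-values of 0.5, 0.6875 and 0.9375, and *IL2RB* to *IL7R* of 0.375, 0.4375 and 0.875 (n = 5). Adjusted over these 9 values each was 1.

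*CSF2RA*, the GM-CSF receptor chain, was named after its values were seen. It was at 34.6 ± 12.1 CPM pre-treatment, 33.3 ± 9.30 CPM in week 12 and 49.4 ± 17.3 CPM in week 18 (mean ± SD, n = 5). From week 12 to week 18 the log2 fold change was 0.57 (SE 0.28), with an edgeR adjusted p of 1 without the block and with it. *CSF2RA* was higher in all 5 animals, as were 2.99% of all features. All 10 JAK and STAT genes had a negative log2 fold change between week 12 and week 18, from −0.27 to −0.022, and 0 of 10 passed in edgeR's test, with 0 of 10 at an unadjusted p of 0.05 with or without the block. Of all 12880 features 51.1% had a negative one in this comparison. So had 8 of 9 cytotoxic and NK cell genes, with a median of −0.23, while the medians were 0.36 for the monocyte genes and 0.47 for the granulocyte genes. The part of these cells in the values of *CSF2RA* and of the JAK and STAT genes was not tested.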
